A study of Mus musculus with 12 samples.

Results

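The genes described here encode the subunits of the neurotransmitter receptors of AMPA, kainate, delta, metabotropic glutamate, GABA-A, GABA-B, glycine and nicotinic type, with the NMDA receptor genes left out. They were picked by symbol alone, and 61 of the 38720 genes listed in both deposited tables matched: 4 AMPA, 5 kainate, 2 delta, 8 metabotropic glutamate, 19 GABA-A, 2 GABA-B, 5 glycine and 16 nicotinic genes. RNA was sequenced from retinal ganglion cells (RGCs) and from the remaining retinal cells (non-RGCs) of newborn mice, with 3 libraries for each genotype and cell fraction and 12 in all. The study asked how loss of Ezh2, the histone methyltransferase that sets the repressive mark H3K27me3, alters gene expression in newborn RGCs.

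The mutant group (mKO) carried Math5-Cre and Ezh2 alleles flanked by loxP sites on both chromosomes (Math5Cre+;Ezh2f/f), and the other group is labelled wild type (WT). All pups were taken at postnatal day 0 (P0), their strain is given as C57/BL6, and no treatment was applied. The labels do not state whether WT pups carried floxed alleles or Cre, or how many pups made up a library. Math5 is switched on in progenitors that give rise to RGCs and to some other retinal cells, and the study describes this Cre as active in only part of the RGCs, so both fractions of mKO retinas hold a mixture of recombined and unrecombined cells. RGCs were pulled out with magnetic beads against CD90, the product of Thy1, and the unbound cells made up the non-RGC fraction.

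Ionotropic glutamate receptors of the AMPA and kainate classes are channels built of several subunits that carry fast excitation, whereas metabotropic glutamate and GABA-B receptors signal more slowly through G proteins. GABA-A, glycine and nicotinic acetylcholine receptors are also assembled from several subunits, and the mix of subunits sets their kinetics, pharmacology and place in the cell. In the newborn retina nicotinic signalling between starburst amacrine cells and RGCs drives the waves of activity that precede vision, and GABA and glycine can still depolarize neurons at that age.

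To show where the genotype comparison led, the sequences ahead of 3 of these genes are given first. Gabra2 (the alpha2 subunit of GABA-A receptors) was higher in mKO cells of both fractions, and Gabrg1 (the gamma1 subunit) is the gene next to it on chromosome 5. Grik3 (a kainate receptor subunit) was called lower in both fractions, and neither call held once the trend with GC content was removed. Each line holds the 250 bases before the RefSeq start site on GRCm38.p6, read 5′ to 3′ on the gene's strand, with every CG dinucleotide in capitals. The windows are chr5:71095850-71096099 on the minus strand for Gabra2, chr5:70842618-70842867 on the minus strand for Gabrg1 and chr4:125490446-125490695 on the plus strand for Grik3.
Gabra2: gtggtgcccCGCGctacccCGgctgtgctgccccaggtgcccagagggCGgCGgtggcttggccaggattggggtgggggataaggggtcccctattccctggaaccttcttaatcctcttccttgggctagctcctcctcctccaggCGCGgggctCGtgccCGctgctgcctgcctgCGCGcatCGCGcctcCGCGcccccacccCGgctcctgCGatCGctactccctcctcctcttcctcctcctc
Gabrg1: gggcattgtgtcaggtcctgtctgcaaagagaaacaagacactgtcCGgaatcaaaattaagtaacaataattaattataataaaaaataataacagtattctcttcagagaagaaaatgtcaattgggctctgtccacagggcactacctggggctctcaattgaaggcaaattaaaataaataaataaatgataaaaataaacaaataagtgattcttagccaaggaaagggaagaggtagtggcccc
Grik3: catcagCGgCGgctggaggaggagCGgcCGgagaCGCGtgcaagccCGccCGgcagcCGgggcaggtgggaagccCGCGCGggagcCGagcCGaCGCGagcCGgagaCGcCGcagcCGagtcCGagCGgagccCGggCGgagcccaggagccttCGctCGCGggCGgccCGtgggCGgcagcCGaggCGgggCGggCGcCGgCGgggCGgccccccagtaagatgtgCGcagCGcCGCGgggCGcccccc

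The Gabra2 window held 18 CG dinucleotides, and 21.6% of the windows ahead of all 27025 genes in the RefSeq set held at least as many. Grik3 had 42, a count reached by 0.825% of all windows, whereas Gabrg1 had 1, and 91.7% of all windows held 1 or more. Gabbr2 and Grik5 were also called lower in both fractions, and their windows held 37 and 8 CG dinucleotides. Those windows are not printed because each touches an annotated exon. Windows were found for 44 of the 61 receptor genes, with a median of 8.5 CG dinucleotides against 6 for all genes. Methylation and H3K27me3 were not measured here, and the counts only describe the letters in these windows.

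Library depth ranged from 7139633 to 13014004 reads on genes, with the shallowest library among the mKO non-RGCs. The 3 libraries of a group are lettered A, B and C in order of falling depth, and a letter ties no library to one of another group. Values are normalized reads (reads divided by the library's size factor) unless another unit is given. Ezh2 itself held 1190 to 1678 normalized reads in WT RGCs and 1354 to 1476 in mKO RGCs, and the groups overlapped in both fractions (log2 fold change 0.09 with adjusted p = 0.637 in RGCs, and 0.13 with adjusted p = 0.584 in non-RGCs). Counts per gene do not separate the deleted exons from the rest of the transcript. None of the 12 RGC markers was at 0. Their summed level went from 2619 to 2766 RPM (reads on genes scaled to 1000000 per library) in WT RGCs to 2059 to 2130 in mKO RGCs. Where 21.2% of all genes tested were lower, 10 of these 12 were called lower. Thy1, which encodes the antigen of the beads, was among these, at 178 to 199 RPM in WT RGCs and 122 to 125 in mKO RGCs. In non-RGCs the summed level of the same markers went from 513 to 539 in WT non-RGCs to 608 to 814 in mKO non-RGCs. There 8 of the 12 were called higher, against 4.18% of all genes tested. These marker counts have the trend with GC content, described below, left in. In bulk samples, fewer cells of a type and less RNA per cell cannot be told apart.

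WT library C stood apart from libraries A and B in RGCs. The 61 receptor genes together made up 3016 RPM there, against 3945 in the highest WT RGC library, while the summed level of 10 progenitor markers was 1884 RPM against 1137 and 1192. Its part in the results below was measured by leaving it out.

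Receptor transcripts were mostly more abundant in WT RGCs than in WT non-RGCs. Of the 55 genes with more than 3 reads in at least 1 WT library, 40 had every RGC library above every non-RGC library in RPM and 5 had every RGC library below, while 10 overlapped; among all genes the shares were 25.3% above and 28.6% below. The tables of the 2 fractions were normalized separately, so these levels are a description without a test. Levels of different genes are compared per kilobase of exon (RPKM).

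**Figure D1:**
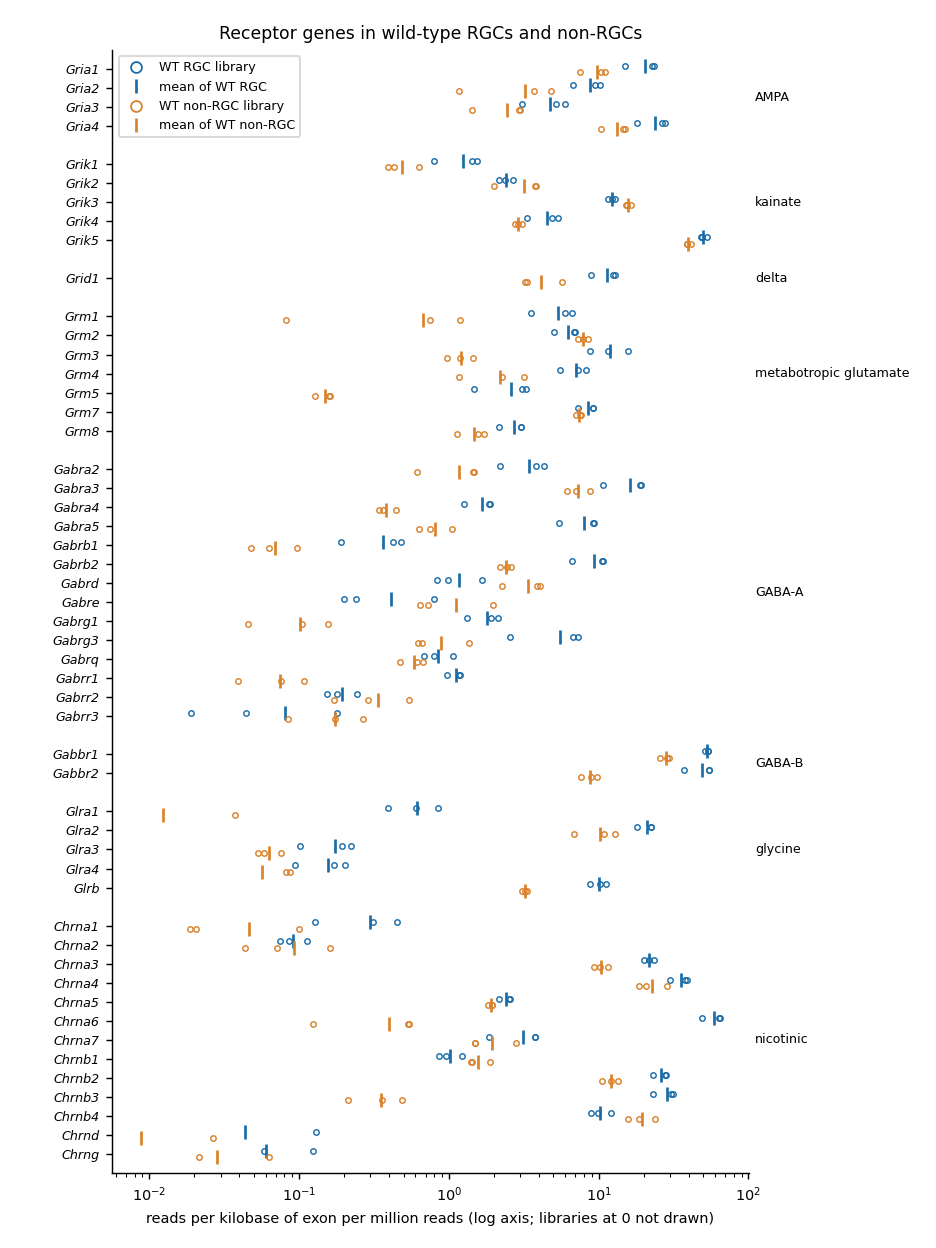
Levels of 51 receptor genes with more than 3 reads in a library of WT retina, in RPKM (reads per kilobase of exon, scaled to library depth) on a log axis, with a circle for each WT library and a bar for the mean of 3. Most RGC circles lie to the right of the non-RGC circles of the same gene, most widely for Chrna6 and Chrnb3.

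Nicotinic subunits gave the sharpest split between the fractions. Chrna6, the alpha6 subunit found in retinal projections, was the most abundant nicotinic gene of WT RGCs per length, at 59.0 ± 8.43 RPKM (SD, n = 3), and stood at 0.401 ± 0.240 RPKM in WT non-RGCs. Chrnb3, its accessory beta3 partner and neighbour on chromosome 8, stood at 28.5 ± 4.57 RPKM in WT RGCs and 0.353 ± 0.139 RPKM in WT non-RGCs. In RPM these were 147 and 80.6 times higher in WT RGCs than in WT non-RGCs. Chrna4, which encodes the alpha4 subunit common in brain, was the most abundant nicotinic gene of non-RGCs per length, at 22.7 ± 5.15 RPKM, against 35.5 ± 4.76 RPKM in RGCs. Chrnb4 went the other way, with 58.6 to 89.3 RPM in WT non-RGCs above 33.1 to 44.9 in WT RGCs.

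In the GABA-B, kainate, AMPA, delta and glycine families the same gene was the most abundant in both fractions, which was not so among the metabotropic receptors. Gabbr1, an obligatory subunit of GABA-B receptors, stood at 52.8 ± 1.54 RPKM in WT RGCs and 28.0 ± 1.95 RPKM in WT non-RGCs. Grik5, a kainate subunit that reaches the surface only together with other subunits, stood at 50 ± 2.35 RPKM in RGCs and 39.8 ± 1.67 RPKM in non-RGCs. These were the highest levels of their families, and the Grik5 libraries of the fractions lay close together, at 251 to 273 against 200.4 to 216 RPM.

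Gria4 led the AMPA genes at 24 ± 5.25 and 13.3 ± 2.54 RPKM, and Glra2, the alpha2 subunit of glycine receptors, led its family at 20.9 ± 2.50 and 10.2 ± 3.03 RPKM. Grid1, a delta receptor gene, stood at 11.4 ± 2.16 RPKM in RGCs and 4.11 ± 1.42 RPKM in non-RGCs. Among metabotropic receptors Grm3 was highest in RGCs, at 12 ± 3.47 RPKM, but fell to 1.21 ± 0.245 RPKM in non-RGCs, where Grm2 was highest at 7.93 ± 0.636 RPKM. Both genes encode receptors of the group coupled to inhibition of cyclic AMP.

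At the other end, Chrna9 and Gabra6 had 0 reads in all 12 libraries, and Chrna10 and Gabrp had at most 3. These 4 genes, together with Chrna2, Chrnd, Chrne, Chrng, Glra4 and Grm6, were too low to be tested in either fraction, and none of the 10 had more than 9 reads in a library. The genes too low to be tested include the subunit pair of cochlear hair cells (Chrna9 and Chrna10), the cerebellar GABA-A subunit Gabra6 and the muscle subunits Chrnd, Chrne and Chrng. The other muscle subunits, Chrna1 (up to 25 reads in a library, tested in RGCs) and Chrnb1 (up to 75 reads, tested in both fractions), were not called. Grm6 encodes the glutamate receptor of ON bipolar cells, which arise after birth.

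The genotypes were then compared within each fraction. Of the 61 genes, 49 passed the filter on low values in RGCs and 47 in non-RGCs, 45 of them in both. In RGCs 8 receptor genes were higher in mKO (16.3% of the 49 tested; 16.3% of all genes tested were higher) and 4 were lower (21.2% of all genes tested were lower). The median log2 fold change of the 49 was 0.28 against -0.0024 for all genes. In non-RGCs 3 were higher, where 4.18% of all genes tested were, and 4 were lower, against 6.43%, with a median of -0.03 for the 47 and -0.03 for all genes. All calls use an adjusted p under 0.05 over all genes tested.

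Every mKO RGC library lay above every WT RGC library for 18 of the 49 genes and below for 7, against 24.7% and 28.2% of all genes tested. In non-RGCs the counts were 9 above and 10 below of 47, against 17.5% and 19.2%. Scaling the libraries to their total reads moved the median log2 fold change of all genes to 0.12 in RGCs and 0.14 in non-RGCs, and the calls became 14 higher and 3 lower in RGCs and 3 higher and 1 lower in non-RGCs. The receptor medians moved with it, to 0.40 in RGCs and 0.14 in non-RGCs. Calls over all genes moved too, from 2622 higher and 3405 lower to 3846 and 2240 of 16085 in RGCs. In non-RGCs they went from 641 and 985 to 1329 and 447 of 15326.

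**Figure D2:**
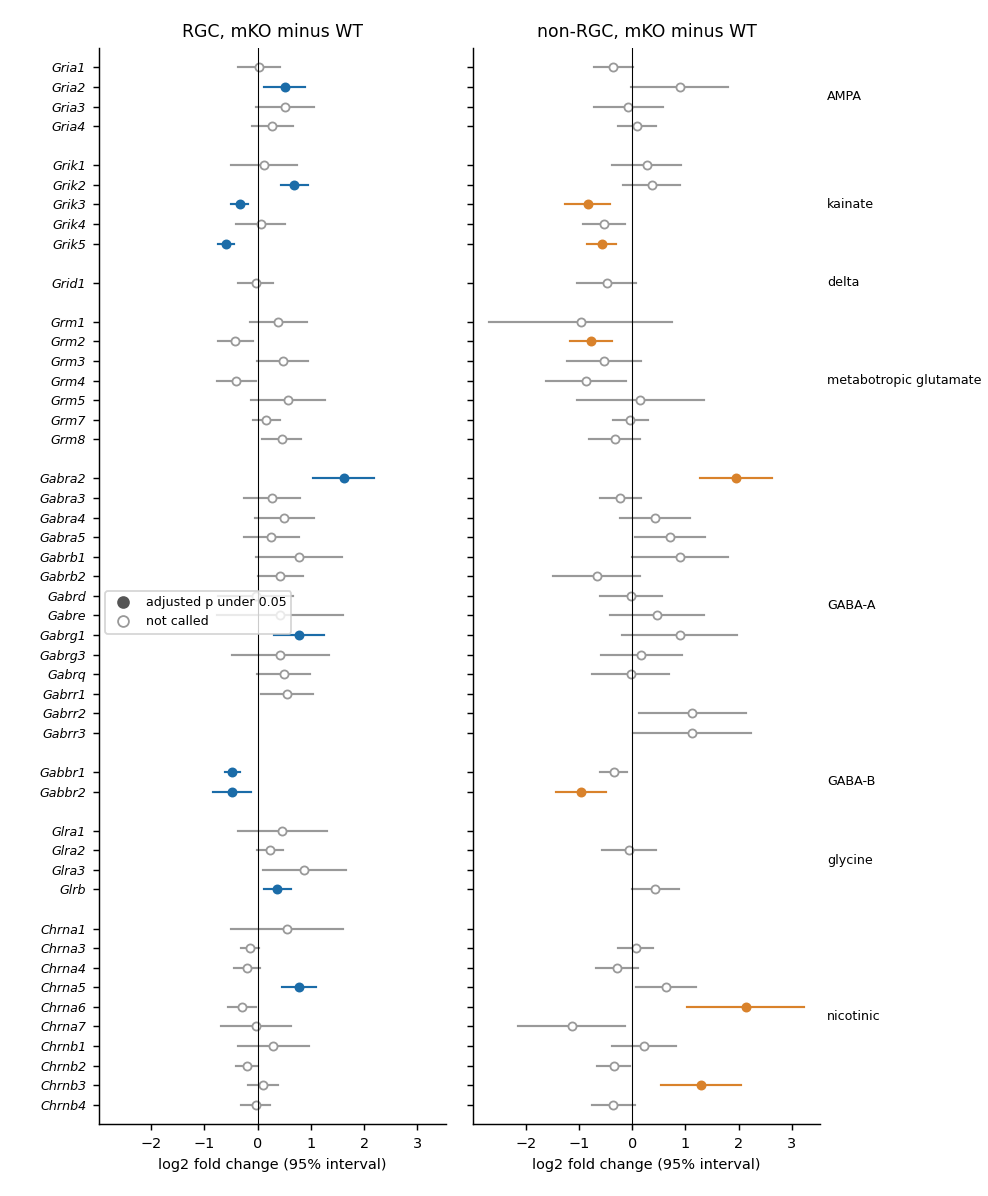
Log2 fold change of mKO minus WT with its 95% interval for 45 receptor genes tested in RGCs (left) and 43 tested in non-RGCs (right), by family; filled points have an adjusted p under 0.05. Gabra2 stands out to the right in both panels, and Chrna6 and Chrnb3 do so only among non-RGCs, a difference between fractions that did not pass its own test.

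Gabra2 showed the largest rise among the receptor genes of RGCs and rose in non-RGCs as well. It lies at chr5:70957597-71095849 on the minus strand, and its promoter window, shown above, held 18 CG dinucleotides. In RGCs its normalized reads were 412, 370.2 and 209 in the WT libraries and 885, 1060.4 and 986 in the mKO libraries. In non-RGCs they were 122, 124 and 54.2 in WT and 384, 340.5 and 370 in mKO. Every mKO library lay above every WT library in both fractions, and library C was the lowest WT library each time. The log2 fold change was 1.62 (SE 0.24, adjusted p = 0.00272), or 3.07-fold, in RGCs and 1.95 (SE 0.30, adjusted p = 0.00858), or 3.86-fold, in non-RGCs. Leaving out each library in turn kept both calls, with adjusted p between 4.97e-05 and 0.0167 in RGCs and between 0.00605 and 0.046 in non-RGCs.

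Shares of the alpha subunit transcripts are given as a description without a test, from reads with the trend in GC content left in. Gabra2 made up 11.7, 10.6 and 10.6% of the reads per kilobase of the 6 alpha genes in WT RGCs and 20.9, 24.6 and 24.6% in mKO RGCs. In non-RGCs its share was 14.4, 11.9 and 7.36% in WT and 32.2, 31.3 and 35.5% in mKO. Gabra3 remained the most abundant alpha gene, with 51.0 to 52.8% in WT RGCs and 42.5 to 43.6% in mKO RGCs, and 69.8 to 73.8% in WT non-RGCs and 46.4 to 50.1% in mKO non-RGCs. Neither gene's shares overlapped between genotypes, as was so for many other subunit genes of these families in RGCs. A larger share of any gene lowers the shares of the others. Normalized reads of Gabra3 itself did not pass the test in either fraction (adjusted p = 0.378 in RGCs and 0.426 in non-RGCs).

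**Figure D3:**
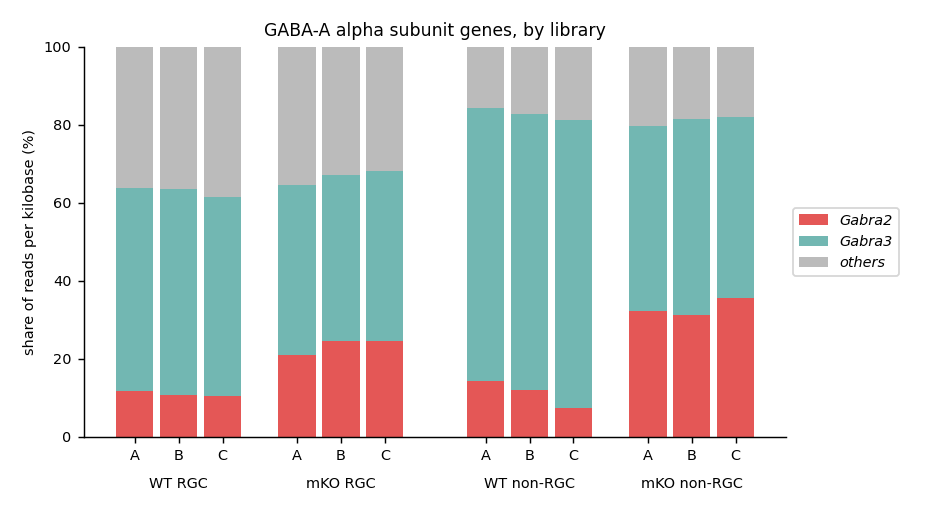
Shares of Gabra2, Gabra3 and the other alpha subunit genes together in the reads per kilobase of the 6 GABA-A alpha genes, in percent, with 1 bar per library. The Gabra2 band is wider in every mKO bar than in any WT bar of the same fraction, and the Gabra3 band is narrower.

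Gabra2 belongs to a cluster of 4 GABA-A genes on chromosome 5, with Gabrg1 on one side and Gabra4 and Gabrb1 on the other. Gabrg1 at chr5:70751047-70842617 held 188, 214 and 128 normalized reads in WT RGCs and 331, 275 and 286 in mKO RGCs. The groups did not overlap, and the log2 fold change was 0.78 (SE 0.20, adjusted p = 0.0203). The call was lost without any single mKO library (adjusted p up to 0.0791). Leaving out an mKO library also cut the higher calls over all 16085 genes, from 2622 to between 1435 and 1518. In non-RGCs Gabrg1 was near the detection limit, with 4 to 14 reads in WT and 8 to 28 reads in mKO libraries (adjusted p = 0.245).

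Gabra4 at chr5:71569749-71658308 held 143, 143 and 95.7 normalized reads in WT RGCs and 194, 214 and 135 in mKO RGCs. The mKO library C lay inside the WT range, and the log2 fold change of 0.50 (SE 0.24) did not pass the test (adjusted p = 0.137). Gabrb1 at chr5:71658113-72149037 held 73.0, 83.6 and 32.7 in WT RGCs and 98.6, 105 and 101 in mKO RGCs. Its groups did not overlap, WT library C was the lowest, and the log2 fold change of 0.78 (SE 0.34) did not pass the test (adjusted p = 0.113). Gabra4 and Gabrb1 start from opposite strands and share 46 exonic bases. In non-RGCs, Gabra4 (24 to 30 in WT and 31.1 to 41.6 in mKO) and Gabrb1 (7.22 to 15.6 in WT and 15.4 to 23.0 in mKO) did not pass the test either, with log2 fold changes of 0.42 (adjusted p = 0.36) and 0.89 (adjusted p = 0.172).

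Of the whole family, 4 of the 15 GABA-A genes tested in RGCs were called higher and 0 lower by limma (0 lower also by voom and at an unadjusted p under 0.05), with log2 fold changes from -0.04 to 1.62 and a median of 0.43, where 16.3% of all genes tested were higher and 21.2% lower. Gabra2 was the 1 GABA-A gene still called without any single mKO library or with the GC trend removed. In non-RGCs Gabra2 was the 1 gene called among 16 GABA-A genes tested, whose log2 fold changes ran from -0.67 to 1.95. Of all genes tested there, 4.18% were higher and 6.43% lower.

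Both GABA-B genes were called lower in RGCs, where 21.2% of all genes tested were lower. Gabbr1 held 5216, 5275 and 4903 normalized reads in WT RGCs and 3542, 3799.8 and 3745 in mKO RGCs, without overlap, and its log2 fold change was -0.47 (SE 0.06, adjusted p = 0.00117). Gabbr2, the subunit that couples the receptor to G proteins, held 4539, 4656 and 3086 in WT RGCs and 2803, 2864 and 2978 in mKO RGCs. WT library C lay just above the mKO libraries, and the log2 fold change was -0.48 (SE 0.15, adjusted p = 0.0432). The Gabbr2 call in RGCs was lost without any one library other than WT library C (adjusted p up to 0.122). With the GC trend removed Gabbr1 stood at -0.26 (adjusted p = 0.0363) and Gabbr2 at -0.15 (adjusted p = 0.594) in RGCs. With the trend in reads per base also removed they stood at -0.05 (adjusted p = 0.634) and 0.0033 (adjusted p = 0.992).

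In non-RGCs Gabbr2 held 564, 663 and 755 normalized reads in WT and 420, 363 and 251 in mKO, a log2 fold change of -0.96 (SE 0.21, adjusted p = 0.0237). The groups did not overlap, and the call was lost without WT library B, WT library C or mKO library B (adjusted p up to 0.0877). Lower calls over all 15326 genes went from 985 to 218 without WT library B. They went to 891 without WT library C and to 92 without mKO library B. Gabbr1 also had every mKO non-RGC library below every WT library, with 1777 to 2079 against 2324 to 2526 normalized reads, and missed the threshold (log2 fold change -0.35, SE 0.11, adjusted p = 0.0712).

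Kainate receptor genes moved in both directions. Grik5 at chr7:25009849-25072346 held 3407, 3173 and 3126 normalized reads in WT RGCs and 2009, 2140.1 and 2274 in mKO RGCs. In non-RGCs it held 2365, 2222 and 2320 in WT and 1350, 1592 and 1727 in mKO. All mKO libraries were below all WT libraries in both fractions, with log2 fold changes of -0.60 (SE 0.07, adjusted p = 0.000946) and -0.57 (SE 0.12, adjusted p = 0.0229). The call in RGCs held without any 1 library (adjusted p up to 0.00816). That in non-RGCs was lost without WT library A, WT library B or mKO library B (adjusted p up to 0.103). With the GC trend removed both calls were lost, and the log2 fold change in RGCs was -0.08 (adjusted p = 0.41).

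Grik3, whose promoter window is the densest in CG of those shown, held 1383, 1463 and 1283 normalized reads in WT RGCs and 1128, 1032 and 1096 in mKO RGCs. In non-RGCs it held 1492, 1641 and 1607 in WT and 1195, 856 and 672 in mKO. The groups did not overlap in either fraction, and the mKO non-RGC libraries were far more spread than the WT ones. The log2 fold change was -0.34 (SE 0.07, adjusted p = 0.00848) in RGCs and -0.84 (SE 0.19, adjusted p = 0.0269) in non-RGCs. The latter call was lost without any single WT library or mKO library B (adjusted p up to 0.113). With the GC trend removed the values were -0.06 (adjusted p = 0.663) in RGCs and -0.64 (adjusted p = 0.121) in non-RGCs, and both calls were lost.

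Grik2, a pore-forming kainate subunit, was called higher in RGCs. It held 395, 448 and 352 normalized reads in WT and 668, 590.1 and 666 in mKO RGCs, without overlap, for a log2 fold change of 0.69 (SE 0.11, adjusted p = 0.00309). The call held without any 1 library (adjusted p up to 0.0208), but it was lost with the GC trend removed (0.18, adjusted p = 0.298) and with both trends removed (0.05, adjusted p = 0.81). In non-RGCs, where WT library C again stood low, it held 548, 564 and 306 in WT and 694, 572 and 509.8 in mKO, with overlapping groups (log2 fold change 0.37, adjusted p = 0.333). Grik5 remained the most abundant kainate gene of RGCs, with 68.9 to 73.3% of the reads per kilobase of the 5 genes in WT and 61.1 to 64.2% in mKO. The share of Grik2 was 3.21 to 3.80% in WT and 6.91 to 7.93% in mKO. These shares were not tested, and the GC trend was left in them.

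Of the 4 AMPA receptor genes, 1 was called higher in RGCs, where 16.3% of all genes tested were, and none was called in non-RGCs. Gria2, whose edited subunit keeps AMPA channels impermeable to calcium, held 1983, 1862 and 1292 normalized reads in WT RGCs and 2222, 2334 and 2630.2 in mKO RGCs, and its log2 fold change was 0.51 (SE 0.16, adjusted p = 0.0444). The groups did not overlap, and the call was lost without WT library B or any mKO library (adjusted p up to 0.144). In non-RGCs WT library C held 212 normalized reads, far below the 824 and 643 of the other WT libraries, and the mKO libraries held 892, 1009.9 and 795, so the groups overlapped (log2 fold change 0.89, SE 0.41, adjusted p = 0.178). Gria4, the most abundant, held 2173, 2106 and 1399 in WT and 2236, 2194 and 2323 in mKO RGCs (log2 fold change 0.28, SE 0.16, adjusted p = 0.216), and 1040.3, 1011 and 759 in WT and 1075, 1056 and 853 in mKO non-RGCs (log2 fold change 0.09, SE 0.16, adjusted p = 0.732). Gria1 and Gria3 were not called in either fraction. Of the delta receptor genes, Grid1 held 958, 941 and 659 in WT and 811, 840 and 806 in mKO RGCs, with a log2 fold change of -0.04 (SE 0.14, adjusted p = 0.853), and was not called in non-RGCs (-0.48, SE 0.25, adjusted p = 0.227).

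Of the metabotropic glutamate receptor genes, 0 of 7 were called in RGCs by limma, where 16.3% of all genes tested were higher and 21.2% lower. Of these 7, 3 had an unadjusted p under 0.05, and voom called Grm2 lower and Grm8 higher. In non-RGCs 1 of 7 was lower, where 6.43% of all genes tested were. Grm2 was lower in non-RGCs, with 426, 464 and 413 normalized reads in WT and 244, 309.8 and 217 in mKO, a log2 fold change of -0.77 (SE 0.18, adjusted p = 0.0273) without overlap. In RGCs it held 421, 431 and 307 in WT and 294, 278 and 284 in mKO, again without overlap, and just missed the threshold (log2 fold change -0.42, SE 0.14, adjusted p = 0.0529). The call in non-RGCs was lost without WT library A, WT library B, mKO library A or mKO library B (adjusted p up to 0.107). An antisense gene covers 9.6% of the Grm2 exons, and reads of the strands cannot be told apart here. Grm3, the most abundant in RGCs, held 441, 604 and 329 in WT and 578, 611 and 662 in mKO RGCs, with a log2 fold change of 0.47 (SE 0.20, adjusted p = 0.109).

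Of the 4 glycine receptor genes tested in RGCs, 1 was called higher, where 16.3% of all genes tested were. Glrb, the beta subunit that binds the scaffold gephyrin, held 592, 661 and 506 normalized reads in WT RGCs and 803, 749 and 706 in mKO RGCs, without overlap (log2 fold change 0.37, SE 0.11, adjusted p = 0.0349). The call was lost without WT library A or any mKO library (adjusted p up to 0.123). Glra2, the most abundant, held 876, 896 and 703 in WT and 978, 1000.4 and 914 in mKO RGCs (log2 fold change 0.23, SE 0.10, adjusted p = 0.115). In non-RGCs neither of the 2 glycine genes tested was called.

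Nicotinic genes showed 1 higher call among 10 tested in RGCs and 2 among 9 tested in non-RGCs. Of all genes tested, 16.3% were higher in RGCs and 4.18% in non-RGCs. Chrna5, an accessory subunit that raises calcium permeability, was the nicotinic gene called in RGCs: it held 98.3, 101 and 84 normalized reads in WT and 169, 155 and 163 in mKO, without overlap, with a log2 fold change of 0.78 (SE 0.13, adjusted p = 0.00475). The call held without any 1 library (adjusted p up to 0.0291). In non-RGCs every mKO library was again higher (141, 90.2 and 89.0, against 63.2, 66.8 and 69.9), but the log2 fold change of 0.64 (SE 0.25) did not pass the test (adjusted p = 0.125).

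The genes beside Chrna5 on chromosome 9 did not pass the test. Chrna3, which starts on the opposite strand, held 1539, 1456 and 1314 normalized reads in WT and 1309, 1267 and 1309.9 in mKO RGCs (log2 fold change -0.15, SE 0.07, adjusted p = 0.138). Chrnb4 held 458, 419 and 556 in WT and 441, 481 and 466 in mKO RGCs (log2 fold change -0.04, SE 0.11, adjusted p = 0.821). In non-RGCs the log2 fold changes were 0.06 (SE 0.15, adjusted p = 0.801) for Chrna3, at 537, 595 and 703 in WT and 663, 649 and 595 in mKO, and -0.36 (SE 0.18, adjusted p = 0.215) for Chrnb4, at 643, 772 and 1033 in WT and 684, 609 and 586 in mKO. No exonic bases of Chrna5 are shared with another gene.

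Chrna6 and Chrnb3, the genes nearly private to RGCs, rose in the non-RGC fraction. Chrna6 held 17.1, 17.4 and 4.17 normalized reads (19, 18 and 4 reads) in WT non-RGCs and 59.3, 47.0 and 49.4 (77, 49 and 35 reads) in mKO non-RGCs, a log2 fold change of 2.13 (SE 0.49, adjusted p = 0.0276). Chrnb3 held 34.3, 25.2 and 15.6 in WT and 60.1, 68.1 and 52.2 in mKO non-RGCs, a log2 fold change of 1.29 (SE 0.34, adjusted p = 0.0397). The groups did not overlap for either gene, both calls were lost without any single mKO library, and that of Chrnb3 also without WT library B (adjusted p up to 0.101 for Chrna6 and 0.168 for Chrnb3).

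In the same libraries 8 of the 12 RGC markers were called higher, against 4.18% of all genes tested. Among these 8, Thy1 stood at 0.175 to 0.811 RPM in WT and 6.78 to 9.24 in mKO non-RGCs. Pou4f2 stood at 3.24 to 6.22 in WT and 12.9 to 20.2 in mKO. The part of the RGC markers in the change of Chrna6 and Chrnb3 was not tested. Even in mKO non-RGCs, Chrna6 stood at 4.76 to 6.0 RPM, against 146 to 154 in mKO RGCs. In RGCs themselves Chrna6 held 2343, 2329 and 1774 normalized reads in WT and 1735, 1760.2 and 1707 in mKO (log2 fold change -0.30, SE 0.11, adjusted p = 0.0703), and Chrnb3 held 2518, 2464 and 1831 in WT and 2388, 2397 and 2466 in mKO (0.10, SE 0.12, adjusted p = 0.526). Chrna4 held 2436, 2390.5 and 1865 in WT and 1917, 1963 and 1936 in mKO RGCs (-0.19, SE 0.10, adjusted p = 0.186), and 1029, 1157 and 1655 in WT and 979, 1090.5 and 1009.7 in mKO non-RGCs (-0.29, SE 0.17, adjusted p = 0.292).

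**Figure D4:**
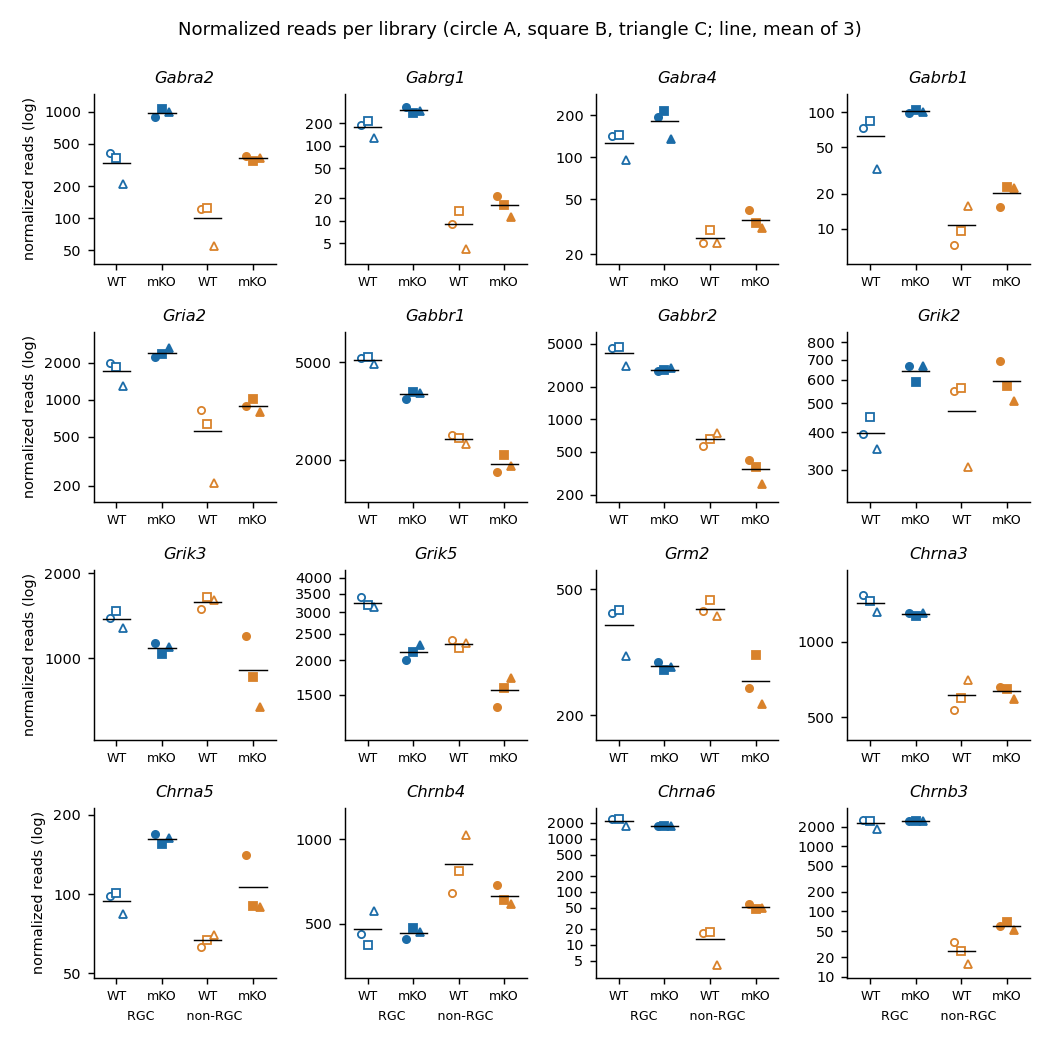
Normalized reads per library on log axes for 16 receptor genes, with WT libraries open, mKO libraries filled, RGCs blue and non-RGCs orange, and a line at the mean of 3. Gabra2 is higher in every mKO library of both fractions, Grik5, Grik3, Gabbr1 and Gabbr2 are lower in every one, and the WT triangle (library C) is often the outermost WT point.

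WT library C decided many other calls in RGCs, of receptor genes and of all genes alike. Without it, 14 more receptor genes were called, among them Gabrb2, Gabre, Gria3 and Grm8 higher, and Chrna3, Chrna4, Chrna6, Chrna7, Chrnb2, Gria1, Grid1, Grm2 and Grm4 lower, for 12 higher and 14 lower of 49. Over all 16085 genes tested, calls went from 2622 higher and 3405 lower to 3737 and 4463. Without library C, Chrna6 had a log2 fold change of -0.43 (adjusted p = 0.000113), and the median over the 49 receptor genes fell to 0.08. All 12 genes called with the full set of libraries were still called.

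The change of a receptor gene ran with the base composition of its exons. Across the genes tested, Spearman's rho between log2 fold change and exonic GC content was -0.70 in RGCs (49 genes) and -0.49 in non-RGCs (47 genes), against -0.71 over 13133 genes and -0.49 over 12589 genes whose mean reached 50 normalized reads. The points share the same 6 libraries and genes are not independent replicates, so no p is given. The 8 genes called higher in RGCs had 34.2 to 45.8% GC, and the 4 called lower had 52.8 to 59.6%. In non-RGCs the ranges were 37.0 to 47.6% and 54.2 to 59.6%.

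**Figure D5:**
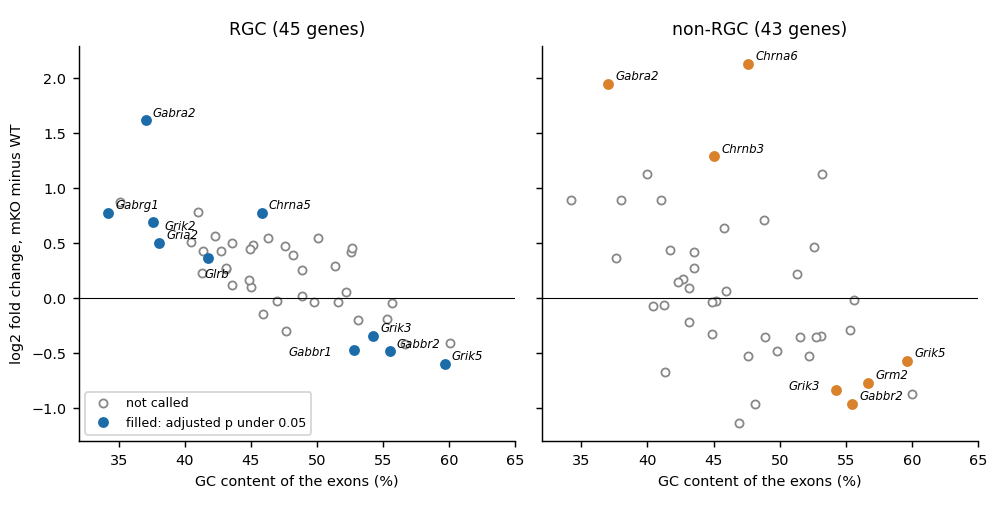
Log2 fold change of mKO minus WT against the GC content of the exons, in percent, for 45 receptor genes tested in RGCs (left) and 43 tested in non-RGCs (right); filled and named points have an adjusted p under 0.05. Genes higher in mKO RGCs lie at 34.2 to 45.8% GC and genes lower lie at 52.8 to 59.6%.

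Each library's trend with GC content was therefore removed and the test run again. In RGCs Gabra2 (log2 fold change 1.08, adjusted p = 0.0344) and Chrna5 (0.66, adjusted p = 0.0213) were still higher and Gabbr1 (-0.26, adjusted p = 0.0363) still lower, for 3 of 49 genes, where 15.6% of all genes were called in either direction. With the trend in reads per base also removed, 1 gene was called higher and 1 lower, against 8.54% of all genes in either direction, and the higher gene was Gabra2 (1.13, adjusted p = 0.0452). In non-RGCs Gabra2 was the 1 receptor gene called after either step, with log2 fold changes of 1.63 (adjusted p = 0.0363) and 1.60 (adjusted p = 0.039), against 2.24% and 2.19% of all genes. The other calls were lost with the GC trend removed. In RGCs the log2 fold change of Grik5 went from -0.60 to -0.08 (adjusted p = 0.41), that of Gabrg1 from 0.78 to 0.09 (adjusted p = 0.807), that of Gria2 from 0.51 to 0.01 (adjusted p = 0.965), that of Glrb from 0.37 to 0.06 (adjusted p = 0.744) and that of Gabbr2 from -0.48 to -0.15 (adjusted p = 0.594). With both trends removed Grik5 stood at 0.05, Gabbr1 at -0.05 (adjusted p = 0.634) and Chrna5 at 0.48 (adjusted p = 0.0829). In non-RGCs Grik5 went from -0.57 to -0.15 (adjusted p = 0.408), Gabbr2 from -0.96 to -0.71 (adjusted p = 0.112) and Grm2 from -0.77 to -0.47 (adjusted p = 0.156). Chrna6 in non-RGCs kept its size (2.14 and 2.05) and lost the call (adjusted p = 0.0582 and 0.0607), and Chrnb3 likewise (1.21 and 1.07, adjusted p = 0.0836 and 0.0926).

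The difference of the mKO effect between the fractions was tested in 1 model of all 12 libraries. No receptor gene passed (limma, 0 of 51, where 0.0969% of all genes did); 7 of the 51, or 13.7%, had an unadjusted p under 0.05, against 9.66% of all genes. The smallest adjusted p was that of Chrna6, with a difference of -2.43 (SE 0.52, adjusted p = 0.162), and Chrnb3 followed at -1.19 (SE 0.32, adjusted p = 0.375). For Gabra2 the difference was -0.33 (SE 0.42, adjusted p = 0.78) and for Grik5 it was -0.02 (SE 0.13, adjusted p = 0.956).

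Genes that work with these receptors were called lower more often than higher, with the GC trend left in. Of 80 such genes, 78 were listed, and 8 were higher and 26 lower of the 76 tested in RGCs, with a median log2 fold change of -0.23, where 16.3% of all genes tested were higher and 21.2% lower with a median of -0.0024. In non-RGCs 1 was higher and 13 lower of 74, with a median of -0.32, where 4.18% of all genes were higher and 6.43% lower with a median of -0.03. Past a fold change of 1.5, RGCs had 3 genes higher: Bche, a cholinesterase (1.22, adjusted p = 0.0155), Slc5a7, the choline transporter of cholinergic neurons (1.15, adjusted p = 0.00907), and Homer1, a scaffold of metabotropic glutamate receptors (0.70, adjusted p = 0.00278). With the GC trend removed none of these 3 passed the threshold (adjusted p = 0.117, 0.0604 and 0.139).

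The 12 lower genes in RGCs included inhibitory and excitatory partners alike. Slc32a1 (the vesicular GABA and glycine transporter), Slc6a9 (a glycine transporter), Nlgn2 (the adhesion protein of inhibitory synapses) and Slc12a5 (the chloride exporter of mature neurons) changed by -0.88, -0.86, -0.76 and -0.60 on the log2 scale. Slc12a5 carries WT values of 3665, 3904 and 2363 normalized reads and mKO values of 2178, 2020.2 and 2184 in RGCs. On the excitatory side, Cnih2 (an AMPA receptor auxiliary subunit) changed by -0.75, Dlg4 (the postsynaptic scaffold PSD-95) by -0.60, Nptxr (the neuronal pentraxin receptor) by -0.61, and the glutamate transporters Slc17a7, Slc1a6 and Slc1a7 by -0.77, -0.60 and -0.77. Ly6h, which restrains nicotinic receptors, changed by -0.95 (adjusted p = 0.000644). With the GC trend removed 4 of the 12 kept the call, among them Ly6h (-0.54, adjusted p = 0.00247), Slc6a9 (-0.48, adjusted p = 0.0196) and Dlg4 (-0.46, adjusted p = 0.00558), and 8 lost it, with Cnih2 at -0.13 (adjusted p = 0.124), Nlgn2 at -0.21 (adjusted p = 0.0813) and Nptxr at -0.11 (adjusted p = 0.515).

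In non-RGCs Slc17a6, the vesicular glutamate transporter of RGCs, was the 1 partner gene called higher, at 50.5, 41.6 and 57.3 normalized reads in WT and 137, 129 and 96 in mKO (log2 fold change 1.25, SE 0.25, adjusted p = 0.0185), beside the RGC markers that were higher there. The 10 genes lower past 1.5-fold included Slc6a9 (-1.03), Shank1 (-1.15), Nlgn2 (-0.87), Shank2 (-0.77), Slc12a5 (-0.75), Iqsec3 (-0.72), Slc6a11 (-0.71), Cacng3 (-0.66) and Dlg4 (-0.63). With the GC trend removed all 9 of these named genes lost the call (adjusted p from 0.0563 for Nlgn2 to 0.218 for Shank2), while Slc17a6 kept it (1.11, adjusted p = 0.0494). Slc6a9, Slc12a5, Nlgn2 and Dlg4 were thus lower past 1.5-fold in both fractions. Amacrine cell markers had 4 of 8 genes lower in RGCs and 2 of 8 lower in non-RGCs, where 21.2% and 6.43% of all genes tested were lower. They share Slc32a1 and Slc6a9 with the partner list, and both are among the 4 lower in RGCs. Photoreceptor markers had 4 of 10 lower in each fraction, and progenitor markers had 4 of 10 in RGCs and 0 in non-RGCs. The part of these cell types in the changes was not tested.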

How the data were processed

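RNA was sequenced from RGC and non-RGC fractions of P0 retinas, with 3 libraries per group. The submitters' processing notes name STAR 2.3.1z4, featureCounts and mm10. The deposited signal values are gene counts, scaled by the authors with size factors from DESeq and deposited as 1 mean per group of 3 libraries. The tables also hold the authors' overall mean, fold changes and p-values, which were not used. Whole reads of each library were recovered from the means, as the sets of 3 whole numbers that give each mean exactly, and the method was tested on simulated data. Recovered libraries carry no replicate number and are lettered by depth.

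Log2(normalized reads + 1) was tested with limma 3.58.1 in R 4.3.3 (two-sided, Benjamini-Hochberg over all genes whose mean reached 10 in 1 or both genotypes). The recovered reads come from deposited means, so limma took the place of a count model, with voom as an alternative. Exon lengths, GC content and coordinates are from GENCODE M21 (GRCm38) and scripts ran in Python 3.11.15. Some genes are counted but not reported by name here or drawn. Values per library are otherwise given for genes past the threshold, the most abundant gene of each family and the Gabra2 and Chrna5 neighbours. These members, lists and tests were chosen with earlier results of these data known, and the neighbours knowing the study's gene list. Alternatives were another pseudocount (0.5), other filters, total-read scaling, removal of each library's GC trend, alone or together with its trend in read density (reads per base), voom, the call rule of a p under 0.05 with a fold change of at least 1.5, and leaving out each library. The p-values measure only the spread between libraries, and 3 per group limit the precision.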

Additional observations from a re-analysis of the deposited data

Results flagged for a closer look

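Chrna6 differed in opposite directions in the fractions: every mKO RGC library was below every WT RGC library, and every mKO non-RGC library was above every WT non-RGC library. The log2 fold change in RGCs was not called (-0.30, limma adjusted p = 0.0703). It was -0.33 (adjusted p = 0.0932) with the GC trend removed and -0.0017 (adjusted p = 0.994) with both trends removed. The difference of the log2 effects, RGC minus non-RGC, was -2.43 (SE 0.52), and limma's test of that difference over all genes gave an adjusted p of 0.162. WT non-RGC libraries held 19, 18 and 4 Chrna6 reads, and without the library with 4 reads the difference passed the threshold.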

How the results depend on the processing

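In RGCs, where 8 receptor genes were called higher and 4 lower, removing the GC trend left 2 and 1, removing the GC and reads per base trends left 1 and 1, and scaling to total reads gave 14 higher. Over all 16085 genes tested, that scaling raised the higher calls from 2622 to 3846. The rule of p under 0.05 with a fold change of 1.5 left 1 lower. In non-RGCs, with 3 higher and 4 lower, both trend removals left 1 higher and 0 lower, scaling to total reads left 1 lower, and the rule of p and fold gave 7 higher. Over all 15326 genes tested there, scaling to total reads cut the lower calls from 985 to 447. Leaving out each library gave 3 to 12 higher and 3 to 14 lower in RGCs, 1 to 3 higher and 0 to 4 lower in non-RGCs, and 0 to 1 in each direction for the difference between fractions. Over all genes tested the ranges were 1435 to 3737 higher and 2305 to 4463 lower of 16085 in RGCs. In non-RGCs they were 47 to 730 and 92 to 1133 of 15326. Among the receptor genes named, the log2 fold change in RGCs reversed for Gabbr2 (0.0033) and Grik5 (0.046) without both trends, as did that of the partner gene Nptxr (0.042); the cause was not tested. Another pseudocount, a minimum mean of 10 required in each genotype, and voom changed no call among the 12 genes called in RGCs and the 7 called in non-RGCs. Without a filter on the mean, Gabbr2 (adjusted p = 0.0506) and Gria2 (0.0533) lost the call in RGCs and Chrnb3 (0.0549) in non-RGCs. No paired analysis was possible because the deposited columns are group means and the recovered libraries carry no replicate number. Low depth limits Chrna6, Chrnb3 and Gabrg1 in non-RGCs, with 4 to 78 reads per library.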
